A study of Homo sapiens with 12 samples.

Results

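The genes described here encode subunits of the oxidative phosphorylation machinery, complexes I to V of the mitochondrial inner membrane. They were taken by gene symbol: NDUF subunits, SDHA to SDHD, the UQCR family, COX4 to COX8, the ATP5 family and the mitochondrial DNA symbols for ND, CO and CYB genes, without symbols that end in P or in P and digits, which mostly mark pseudogenes, and with at least 120 counts over all libraries. Of 125 symbols with matching names, 28 had such an ending and 9 of the other 97 were below 120 counts, so that 88 genes of 56832 listed symbols remained. Nuclear DNA encodes 77 of them (35 for complex I, 4 for complex II, 9 for complex III, 12 for complex IV, 15 for complex V and 2, ATP5S and ATP5SL, that were counted apart from the complexes). Mitochondrial DNA encodes 11 of them (7 for complex I, 1 for complex III and 3 for complex IV). All 88 passed the count filter of the tests. MT-ATP6 and MT-ATP8, the complex V genes of mitochondrial DNA, end like pseudogene symbols and are outside the rule, so their values are given beside the others but not counted.

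RNA sequencing compared cells labelled SW1736, an established anaplastic thyroid cancer cell line, in 4 groups of 3 libraries. TRB cells stably carried pCDH-TRB, a vector for thyroid hormone receptor beta, and EV cells carried the empty vector pCDH-EV. All cells spent 24 h in phenol-red-free medium with charcoal-stripped serum, and then had 24 h with 10 nM triiodothyronine (T3) or with its NaOH vehicle. The groups were therefore TRB with vehicle, TRB with T3, EV with vehicle and EV with T3, and the comparisons ask how hormone, receptor and their combination alter transcript levels. The labels do not say whether replicates were separate cultures or whether each line was 1 clone, so p-values measure only the spread between these libraries, which may be technical.

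Libraries held 3819306 to 13086717 counts within genes, and replicate 2 of TRB with T3 stood apart from the other 2 libraries of its group. The common coefficient of variation between replicates, as edgeR estimates it, was 0.617 in TRB with T3 and 0.0577 without that library, beside 0.0821 to 0.218 in the other 3 groups. Its log2 deviation from the mean of its group had a Spearman correlation of -0.889 with gene GC content across 12425 genes, which are not independent replicates. Replicates 1 and 3 of the group were at 0.861 and 0.876, but they share its mean, so their opposite sign follows from its value. A strong trend was not particular to this group: EV with T3 replicates 2 and 3 were at -0.824 and 0.796. The other 7 libraries were between -0.656 and 0.455. The main results are therefore given for all 12 libraries and for the 11 without it, and some values for only 1 of these fits. Replicate 2 was left out because it was known to stand apart, which leaves 2 libraries that lie close together. Adjusted p-values over 11 libraries may for that reason be too small. EV with T3 replicates 2 and 3 were kept in both fits. The gene supplied by the vector, THRB, was at 80.2, 79.8 and 80.4 CPM in TRB with vehicle, 322, 190.3 and 297 CPM with T3, and 12.3 to 18.3 CPM in the 6 EV libraries, so the T3 comparison in TRB cells also sets different THRB levels against each other. CPM are counts scaled to a common depth after TMM scaling. Of the 9 thyroid follicular markers examined, TSHR and FOXE1 had no count in any library (0 counts over the 12 libraries allows up to 0.0279 CPM, counting error only), TG did not exceed 0.625 CPM, and PAX8 was at 0.720 to 6.98 CPM. EPCAM, an epithelial marker, was at 317 to 1100 CPM, and of 3 mesenchymal markers VIM did not exceed 1.51 CPM, CDH2 had no count, and FN1 was at 9.15 to 16.5 CPM with vehicle and 66.2 to 303 CPM with T3. Of the leukocyte markers, CD3E had no count and PTPRC did not exceed 0.217 CPM, but LYZ was at 778 to 1589 CPM. Whether these levels fit the labelled line was not tested.

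Complexes I to IV pass electrons from NADH and succinate to oxygen and, except for complex II, pump protons, and complex V uses the proton gradient to make ATP. Mitochondrial DNA encodes a few hydrophobic core subunits, transcribed as long polycistronic precursors that are cut into single mRNAs. The other subunits come from nuclear genes, whose promoters often hold sites for NRF1, ETS-family factors such as GABPA, and YY1. Thyroid hormone is a classic regulator of mitochondrial content and respiration in liver and muscle.

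Of the 12 nuclear genes that passed for T3 in TRB cells without replicate 2, promoter sequences are shown for the 3 higher and the 4 most negative ones, with RefSeq windows of 280 bases (250 before the annotated start and 30 from it on, 5′ to 3′ in the gene's direction, assembly GRCh38.p14). The first pair encodes subunit c of the ATP synthase rotor and was lower with T3 in TRB cells once replicate 2 was left out; RefSeq names them ATP5MC1 and ATP5MC2. Their windows lie at chr17:48892537-48892816 on the plus strand and chr12:53676054-53676333 on the minus strand. The ATP5G2 window lies inside the RefSeq span of its gene, chr12:53665170-53681423, so its annotated start is not the outermost start of that gene. UQCRH, the hinge protein of complex III, and NDUFA9, an accessory subunit of complex I, were also lower there, and their windows lie at chr1:46303448-46303727 on the plus strand and chr12:4648864-4649143 on the plus strand. NDUFA8, NDUFB1 and NDUFB10, accessory subunits of complex I, were higher there, and their windows lie at chr9:122159750-122160029 on the minus strand, chr14:92121677-92121956 on the minus strand and chr16:1959288-1959567 on the plus strand. Capitals mark any match, on either strand, to GCGCA and GCGC with 1 base between (NRF1), CCGGAAG (ETS family), AAGATGGCG (YY1) or GGGCGG (SP1 family).
ATP5G1: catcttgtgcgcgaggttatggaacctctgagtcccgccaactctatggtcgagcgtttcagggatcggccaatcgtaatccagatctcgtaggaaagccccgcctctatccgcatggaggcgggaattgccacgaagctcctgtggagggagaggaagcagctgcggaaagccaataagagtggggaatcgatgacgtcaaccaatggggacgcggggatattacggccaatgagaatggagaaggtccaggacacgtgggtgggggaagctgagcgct
ATP5G2: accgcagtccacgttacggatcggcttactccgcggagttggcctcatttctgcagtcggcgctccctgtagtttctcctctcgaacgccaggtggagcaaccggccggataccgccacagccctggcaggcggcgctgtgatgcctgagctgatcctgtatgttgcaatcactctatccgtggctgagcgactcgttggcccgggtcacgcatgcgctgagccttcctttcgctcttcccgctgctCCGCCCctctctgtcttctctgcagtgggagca
UQCRH: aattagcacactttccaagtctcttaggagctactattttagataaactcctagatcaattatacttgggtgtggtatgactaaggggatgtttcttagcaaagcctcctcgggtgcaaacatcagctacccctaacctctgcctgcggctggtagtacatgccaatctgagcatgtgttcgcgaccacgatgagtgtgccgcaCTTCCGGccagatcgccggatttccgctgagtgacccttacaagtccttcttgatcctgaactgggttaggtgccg
NDUFA9: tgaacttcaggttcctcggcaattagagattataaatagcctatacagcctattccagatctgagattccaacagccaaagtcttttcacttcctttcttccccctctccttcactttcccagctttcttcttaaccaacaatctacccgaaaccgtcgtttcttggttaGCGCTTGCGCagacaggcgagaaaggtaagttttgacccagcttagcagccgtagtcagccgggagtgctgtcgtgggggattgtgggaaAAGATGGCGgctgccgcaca
NDUFA8: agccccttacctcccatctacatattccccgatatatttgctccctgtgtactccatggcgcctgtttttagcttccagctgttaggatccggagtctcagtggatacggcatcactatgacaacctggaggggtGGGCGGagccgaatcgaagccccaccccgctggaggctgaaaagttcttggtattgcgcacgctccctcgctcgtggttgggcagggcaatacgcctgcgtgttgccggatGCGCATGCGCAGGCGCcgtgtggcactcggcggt
NDUFB1: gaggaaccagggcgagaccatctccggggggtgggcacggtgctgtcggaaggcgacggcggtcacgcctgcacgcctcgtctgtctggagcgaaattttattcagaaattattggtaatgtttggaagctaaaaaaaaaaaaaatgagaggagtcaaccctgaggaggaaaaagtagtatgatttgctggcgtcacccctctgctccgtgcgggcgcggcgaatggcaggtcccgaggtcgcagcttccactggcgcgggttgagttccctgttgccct
NDUFB10: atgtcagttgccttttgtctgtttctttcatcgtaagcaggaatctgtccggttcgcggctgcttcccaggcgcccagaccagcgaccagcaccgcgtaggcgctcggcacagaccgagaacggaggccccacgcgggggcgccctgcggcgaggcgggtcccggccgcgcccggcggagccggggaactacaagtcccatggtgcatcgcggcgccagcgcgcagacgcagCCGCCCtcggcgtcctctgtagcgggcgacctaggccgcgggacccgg

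These windows differ in the letters they hold. The ATP5G1 and NDUFB1 windows have no match to any of these motifs, and ATP5G2 and NDUFB10 have 1 match each to the SP1 motif. NDUFA9 has 1 NRF1 and 1 YY1 match, UQCRH has 1 ETS match, and NDUFA8 has 2 overlapping NRF1 matches and 1 SP1 match. Over the 63 nuclear genes of the group with an entry in the RefSeq promoter table, the NRF1 motif was in 23.8% of windows, against 8.51% of 15842 protein-coding promoters of the same length. The ETS motif was in 30.2% against 13.9%, the YY1 motif in 7.94% against 2.12%, and the SP1 motif in 57.1% against 57.5%. The direct repeat of AGGTCA with 4 bases between, a binding motif of thyroid hormone receptors, was in none of the 63 windows and in 1 of the 15842. A match describes letters only and was not tested as a binding site.

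With T3 in TRB cells, transcripts of nuclear respiratory chain genes took a smaller share of all counts and those of mitochondrial DNA took a larger part relative to them. The 77 nuclear genes held 0.723, 0.676 and 0.701% of the counts within genes in vehicle-treated TRB cells and 0.592, 0.425 and 0.601% in TRB with T3 (replicates 1, 2 and 3). The groups did not overlap. The shares were 0.639, 0.634 and 0.674% in EV with vehicle and 0.714, 0.618 and 0.767% in EV with T3, where they overlapped.

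The 11 mitochondrial genes held 3.50, 2.91 and 2.58% of counts in vehicle-treated TRB cells and 4.31, 2.50 and 3.798% in TRB with T3. Without replicate 2, both T3 libraries lay above all 3 vehicle libraries, and with it the groups overlapped. In EV cells they held 4.56, 3.45 and 3.22% with vehicle and 2.98, 5.95 and 3.45% with T3, and replicate 2 of EV with T3 was the highest of the 12.

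The ratio of mitochondrial to nuclear counts, which does not depend on library scaling, was 4.84, 4.30 and 3.68 in vehicle-treated TRB cells and 7.28, 5.89 and 6.32 in TRB with T3. All 3 T3 libraries were above all 3 vehicle libraries, with means of 4.28 ± 0.579 and 6.50 ± 0.709 (SD, n = 3), and 6.80 ± 0.677 (SD, n = 2) without replicate 2. In EV cells the ratio was 7.13, 5.44 and 4.78 with vehicle and 4.18, 9.63 and 4.50 with T3, with means of 5.79 ± 1.21 and 6.10 ± 3.06 (SD, n = 3). EV with T3 had the widest spread, and its mean was 4.34 without its own replicate 2. The EV vehicle ratios lay between 4.78 and 7.14, and 1 of the 3 TRB vehicle libraries was inside that range. In bulk RNA, fewer cells of a type and less RNA per cell cannot be told apart.

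**Figure D1:**
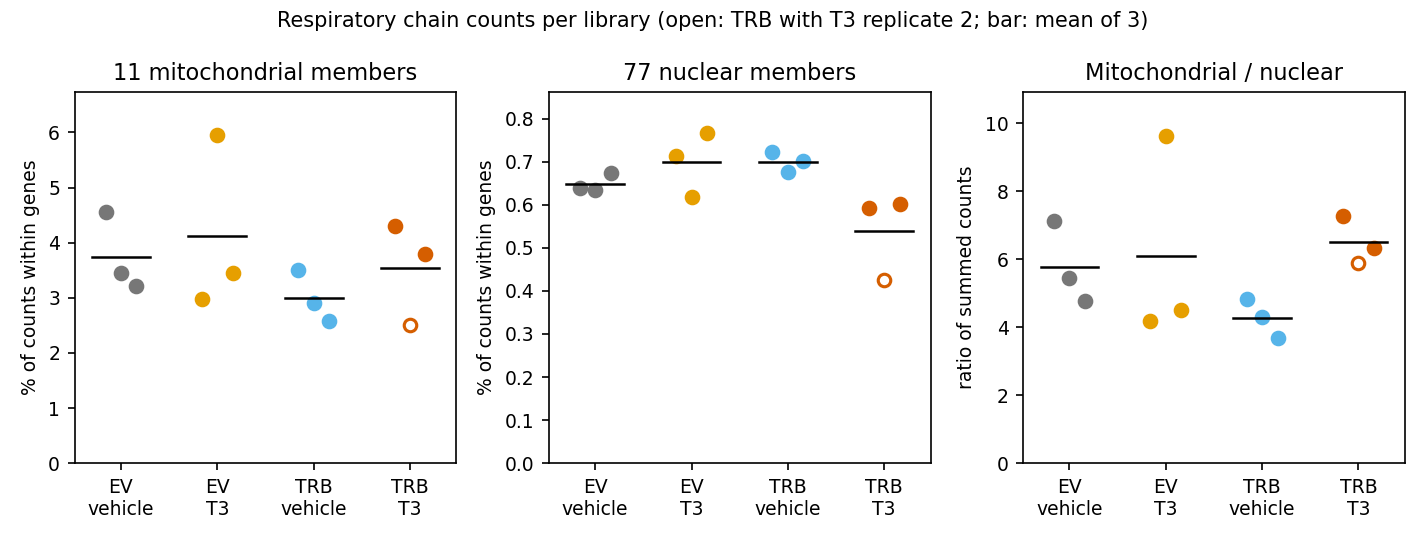
Share of counts within genes held by the 11 mitochondrial and the 77 nuclear genes, and the ratio of their summed counts, by group; each point is 1 library, the open point is TRB with T3 replicate 2, and bars are means of 3. The nuclear share of TRB with T3 lies at 0.425 to 0.601%, under the 0.676 to 0.723% of TRB with vehicle, and the ratio lies at 5.89 to 7.28, above 3.68 to 4.84.

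Tested gene by gene with edgeR's quasi-likelihood test and Benjamini-Hochberg adjustment over all genes, T3 in TRB cells changed 1 of the 77 nuclear genes, which was higher, and 0 of the 11 mitochondrial genes, while 14.7% of all 14431 genes passed (8.54% higher). At an unadjusted p under 0.05 there were 14 nuclear genes and 1 mitochondrial gene, beside 30.3% of all genes, and DESeq2 called 4 nuclear genes and 0 mitochondrial ones, beside 17.5% of the genes it tested. Without TRB with T3 replicate 2, 12 nuclear genes passed, 3 higher and 9 lower, and again 0 mitochondrial genes, with 18 nuclear and 5 mitochondrial genes at an unadjusted p under 0.05 (42.3% of all genes), while 33.3% of 14825 genes passed (18.1% higher and 15.2% lower). The 12 are 15.6% of the nuclear genes, a smaller share than that of all genes. The fitted median log2 change of the nuclear genes was -0.29 with 12 libraries and -0.15 with 11, beside 0.0068 and -0.011 for all genes tested, and 59 and 57 of 77 were negative. For the mitochondrial genes the median was 0.53 and 0.59, and 10 and 11 of 11 were positive. All nuclear values share libraries, so these counts describe the group and carry no test.

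Libraries that did not overlap between groups were counted as well. In 29 of the 77 nuclear genes every T3 library of TRB cells lay under every vehicle library, 37.7% beside 23.5% of all genes tested, and in 45 of them without replicate 2, 58.4% beside 36%. Mitochondrial genes were above in 3 of 11 (27.3%, beside 17.3% of all genes), and in 7 of 11 (63.6%, beside 30.3%) without replicate 2. GC offsets, which remove each library's smooth trend with gene GC content and were chosen after seeing the data, gave more calls. With them 24 nuclear genes passed over 12 libraries, 2 higher and 22 lower, beside 42.8% of 12425 genes (20.1% higher and 22.8% lower). The 12 nuclear genes that passed over 11 libraries without offsets were among these 24, except NDUFA8 and COX6C. Over 11 libraries 38 nuclear genes passed, 3 higher and 35 lower, and 5 mitochondrial genes were higher, beside 56.4% of 12603 genes (24% higher and 32.4% lower).

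**Figure D2:**
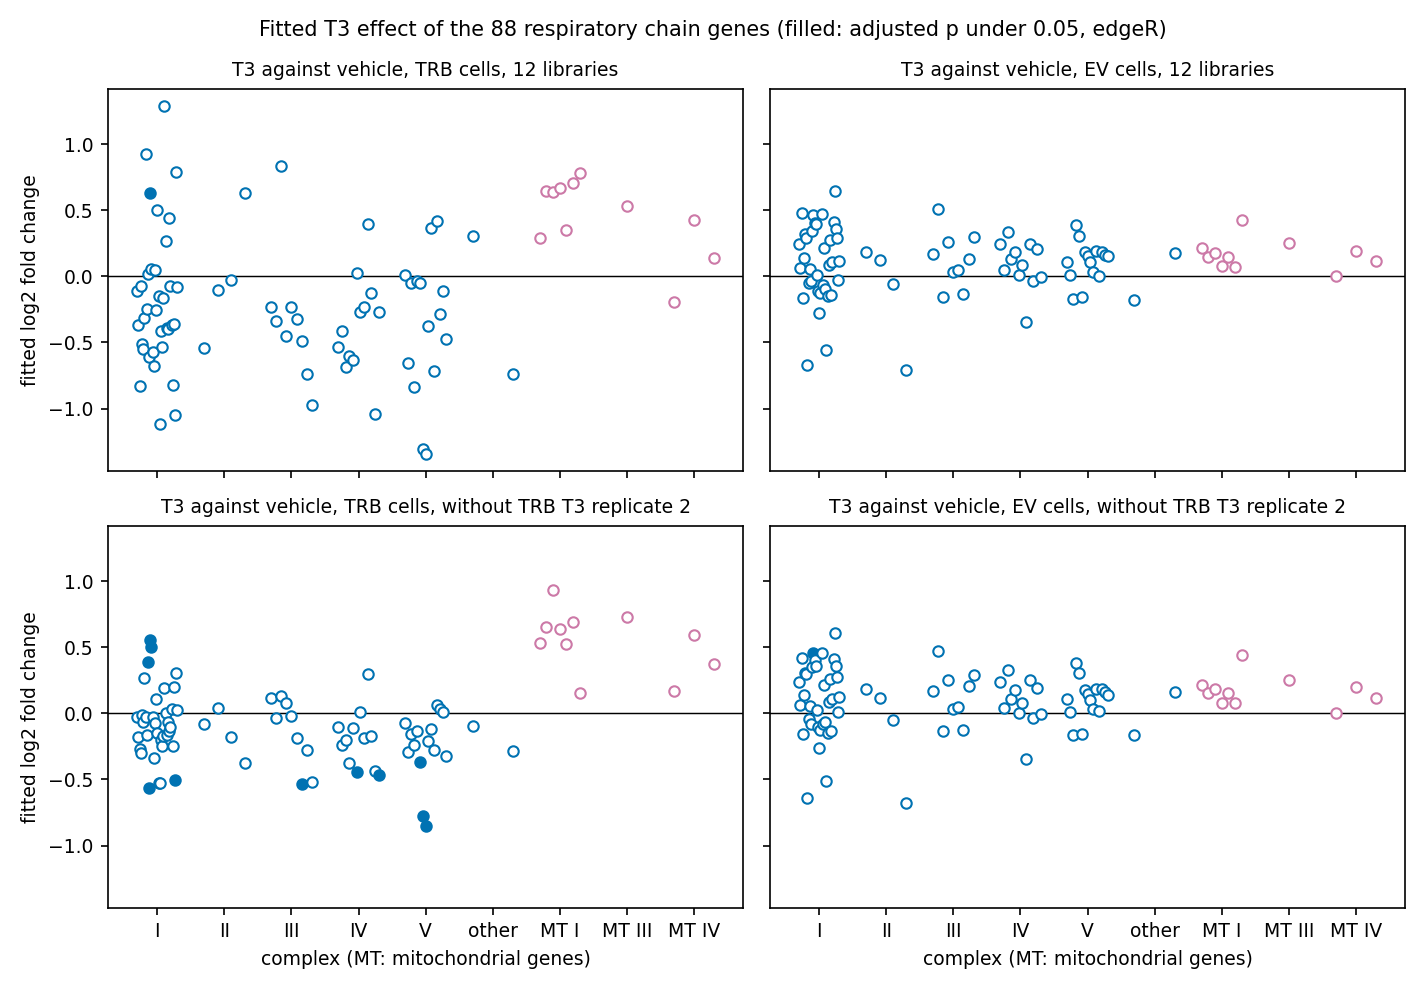
Fitted log2 fold change of T3 against vehicle for each of the 88 genes by complex, in TRB cells (left) and EV cells (right), from 12 libraries (top) and from 11 without TRB with T3 replicate 2 (bottom); filled points have an adjusted p under 0.05 (edgeR). In TRB cells the nuclear medians are -0.29 and -0.15 and the mitochondrial medians 0.53 and 0.59, and the filled points number 1 and 12.

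Complex I, the NADH dehydrogenase, held both directions. NDUFB1, an accessory subunit of the membrane arm, was the 1 gene higher with T3 in TRB cells in both fits. The CPM of NDUFB1 was 37.4, 32.3 and 33.1 in TRB cells with vehicle and 49.4, 62.4 and 47.6 in TRB cells with T3 (replicates 1, 2 and 3). All 3 T3 libraries were above the vehicle libraries. The log2 fold change was 0.63 ± 0.16 (SE; adjusted p = 0.023, edgeR quasi-likelihood test, Benjamini-Hochberg) with 12 libraries and 0.55 ± 0.11 (adjusted p = 0.00156) with 11. In EV cells the CPM of NDUFB1 was 36.9, 34.8 and 33.8 with vehicle and 45.1, 43.5 and 45.6 with T3. Those groups did not overlap either, and the fitted change there was 0.35 (adjusted p = 0.835, edgeR) with 12 libraries and 0.35 (adjusted p = 0.0523) with 11. The difference between the T3 effects in TRB and EV cells was 0.20 ± 0.15 (SE; adjusted p = 0.383, edgeR) over 11 libraries.

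NDUFB10 and NDUFA8, accessory subunits with cysteine motifs that face the intermembrane space, passed, as higher, in the fit of 11 libraries and not in that of 12. The CPM of NDUFB10 was 36.1, 37.2 and 38.0 in TRB cells with vehicle and 49.8, 14.03 and 51.7 in TRB cells with T3 (replicates 1, 2 and 3). Replicates 1 and 3 were above all vehicle libraries and replicate 2 was under them, and the log2 fold change was 0.50 ± 0.13 (SE; adjusted p = 0.0115, edgeR) without replicate 2 and 0.058 (adjusted p = 0.928) with it. For EV cells the CPM of NDUFB10 was 44.1, 38.6 and 44.0 with vehicle and 60.0, 47.7 and 67.1 with T3, with no overlap. The CPM of NDUFA8 was 37.8, 38.6 and 34.8 in TRB cells with vehicle and 47.2, 18.2 and 46.8 in TRB cells with T3 (replicates 1, 2 and 3). Its pattern over replicates was like that of NDUFB10, with a log2 fold change of 0.39 ± 0.12 (SE; adjusted p = 0.0204, edgeR) over 11 libraries and 0.017 (adjusted p = 0.974) over 12. With GC offsets NDUFB10 passed in both fits, at 0.56 (adjusted p = 0.00478, edgeR) over 12 libraries and 0.36 (adjusted p = 0.000404) over 11. NDUFA8 then had 0.087 (adjusted p = 0.697, edgeR) over 12 libraries and 0.28 (adjusted p = 0.00764) over 11.

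Of the complex I genes lower over 11 libraries, NDUFV1 encodes the core subunit that binds FMN and takes electrons from NADH. The CPM of NDUFV1 was 154, 152 and 155 in TRB cells with vehicle and 104, 12.1 and 106 in TRB cells with T3 (replicates 1, 2 and 3). The T3 libraries were all under the vehicle libraries, and replicate 2 was far under the other 2. The log2 fold change was -0.50 ± 0.17 (SE; adjusted p = 0.0406, edgeR) over 11 libraries and -1.05 (adjusted p = 0.235) over 12. In EV cells the CPM of NDUFV1 was 112, 111 and 123.2 with vehicle and 147, 98.7 and 177 with T3, which overlapped.

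NDUFA9, whose promoter window holds both an NRF1 and a YY1 match, was at similar levels in all 3 T3 libraries. The CPM of NDUFA9 was 25.7, 19.7 and 21.1 in TRB cells with vehicle and 14.3, 14.6 and 14.6 in TRB cells with T3 (replicates 1, 2 and 3). No T3 library reached a vehicle library, and the log2 fold change was -0.56 ± 0.20 (SE; adjusted p = 0.0461, edgeR) over 11 libraries and -0.61 (adjusted p = 0.101) over 12. The CPM of NDUFB6 was 17.99, 16.7 and 19.4 in TRB cells with vehicle and 11.03, 24.8 and 13.4 in TRB cells with T3 (replicates 1, 2 and 3). For NDUFB6, an accessory membrane-arm subunit, replicate 2 was above the vehicle libraries and replicates 1 and 3 were under them, with a change of -0.53 ± 0.15 (SE; adjusted p = 0.0181, edgeR) over 11 libraries and -0.15 (adjusted p = 0.732) over 12. The other 29 nuclear complex I genes did not pass in either fit. NDUFB9, with the highest mean CPM of the complex I genes (180.4 over 12 libraries), was at 207, 184 and 194 CPM in vehicle-treated TRB cells and 158, 85.3 and 160.4 in TRB with T3.

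Of complex II, the succinate dehydrogenase that also works in the citrate cycle, 0 of 4 genes passed in either fit. SDHA, the flavoprotein that oxidizes succinate, was at 207, 215 and 212 CPM in vehicle-treated TRB cells and 195, 47.7 and 192 in TRB with T3. Replicates 1 and 3 were just under the vehicle libraries, and replicate 2 was far under them. SDHA has SDHAP pseudogene symbols in the count files, so that reads may be split between them. SDHD, a membrane anchor, was at 42.6, 60.7 and 63.4 CPM in vehicle-treated TRB cells and 42.0, 176 and 41.1 in TRB with T3, so that replicate 2 departed upward there.

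Of the 9 nuclear complex III genes, UQCRH alone passed, over 11 libraries. The CPM of UQCRH was 103, 113 and 105 in TRB cells with vehicle and 76.9, 86.3 and 65.2 in TRB cells with T3 (replicates 1, 2 and 3). All 3 T3 libraries were under the vehicle libraries, with a log2 fold change of -0.54 ± 0.13 (SE; adjusted p = 0.00606, edgeR) over 11 libraries and -0.49 (adjusted p = 0.0689) over 12. For EV cells the CPM of UQCRH was 95.1, 96.5 and 106 with vehicle and 101, 90.7 and 79.5 with T3, and the groups overlapped. UQCRHL, a near-identical intronless copy, was at 0.54 to 6.52 CPM, and reads that match both genes may be split or lost, so both are uncertain. The core protein UQCRC2, with the highest mean CPM of the complex (148), was at 160.4, 149 and 148 CPM in vehicle-treated TRB cells and 144, 98.0 and 148 in TRB with T3.

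Of the 12 nuclear complex IV genes, NDUFA4 and COX6C were lower over 11 libraries. The CPM of NDUFA4 was 74.5, 66.4 and 70.0 in TRB cells with vehicle and 50.7, 76.3 and 47.8 in TRB cells with T3 (replicates 1, 2 and 3). For NDUFA4, long assigned to complex I and now to complex IV, replicates 1 and 3 were under all vehicle libraries and replicate 2 was above them. Its log2 fold change was -0.46 ± 0.11 (SE; adjusted p = 0.00616, edgeR) over 11 libraries and -0.27 (adjusted p = 0.356) over 12. COX6C, a small structural subunit, had the same pattern over replicates, with 76.6, 58.3 and 69.7 CPM in vehicle-treated TRB cells, 47.4, 112 and 49.6 in TRB with T3, and a log2 fold change of -0.44 ± 0.13 (SE; adjusted p = 0.0195, edgeR) over 11 libraries and 0.027 (adjusted p = 0.959) over 12.

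The ubiquitous isoform COX4I1 had the highest mean CPM of complex IV (166). It was at 186, 173 and 177 CPM in vehicle-treated TRB cells and 158, 47.5 and 165 in TRB with T3. Its log2 fold change was -0.10 (adjusted p = 0.576, edgeR) over 11 libraries and -0.53 (adjusted p = 0.334) over 12. COX5A, COX5B and COX7A2L, the last linked to supercomplex assembly, had log2 fold changes of -0.24, -0.20 and -0.19 over 11 libraries. Over 12 libraries the changes were -0.41, -0.69 and -0.23, and none passed in either fit. The tissue-restricted isoforms had few counts or none: COX4I2, COX6A2 and COX7B2 had 0 counts over all 12 libraries, COX7A1 and COX8C had 1 each, and COX6B2 had 108.

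The 2 most negative changes over 11 libraries were in complex V. ATP5G1, ATP5G2 and ATP5G3 encode the same mature subunit c, which forms the rotor ring in the membrane, and differ in their import sequences. The CPM of ATP5G1 was 73.0, 62.9 and 65.9 in TRB cells with vehicle and 36.2, 5.22 and 39.8 in TRB cells with T3 (replicates 1, 2 and 3). The CPM of ATP5G2 was 147, 141 and 137 in TRB cells with vehicle and 71.0, 15.1 and 81.3 in TRB cells with T3 (replicates 1, 2 and 3). In both genes all 3 T3 libraries were under the vehicle libraries, and replicate 2 was far under replicates 1 and 3. Among EV libraries the CPM of ATP5G1 was 54.9, 49.9 and 62.2 with vehicle and 70.8, 47.0 and 72.1 with T3. The CPM of ATP5G2 was 135, 117 and 124 and 137, 114 and 167 in the same order. The EV groups overlapped in both genes.

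Over 11 libraries the log2 fold change of ATP5G2 in TRB cells was -0.85 ± 0.14 (SE; adjusted p = 0.000558, edgeR) and that of ATP5G1 was -0.78 ± 0.17 (adjusted p = 0.00364). Over 12 libraries the changes were -1.34 (adjusted p = 0.0746) and -1.30 (adjusted p = 0.128), larger but not past the threshold. With GC offsets both genes passed over 12 libraries, at -1.07 (adjusted p = 8.6e-06, edgeR) for ATP5G2 and -1.15 (adjusted p = 0.0031) for ATP5G1. ATP5G3 had a smaller fitted change. The CPM of ATP5G3 was 86.7, 80.0 and 93.4 in TRB cells with vehicle and 72.3, 55.4 and 73.0 in TRB cells with T3 (replicates 1, 2 and 3). Its T3 libraries were also under its vehicle libraries. Its log2 fold change was -0.21 ± 0.14 (SE; adjusted p = 0.308, edgeR) over 11 libraries and -0.37 (adjusted p = 0.211) over 12. A difference between the T3 effects of these 3 genes was not tested.

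ATP5F1, subunit b of the peripheral stalk, was the third complex V gene lower over 11 libraries. The CPM of ATP5F1 was 141, 127 and 128 in TRB cells with vehicle and 99.0, 186 and 98.6 in TRB cells with T3 (replicates 1, 2 and 3). Replicates 1 and 3 were under all vehicle libraries and replicate 2 was above them, with a log2 fold change of -0.37 ± 0.11 (SE; adjusted p = 0.0166, edgeR) over 11 libraries and -0.048 (adjusted p = 0.902) over 12. ATP5B, the catalytic beta subunit and the nuclear gene of the group with the highest mean CPM (575), was at 684, 628 and 641 CPM in vehicle-treated TRB cells and 501, 212 and 526 in TRB with T3. Its libraries did not overlap and its log2 fold change of -0.29 over 11 libraries did not pass (adjusted p = 0.105, edgeR). With GC offsets it passed in both fits, at -0.61 (adjusted p = 0.0153) over 12 libraries and -0.40 (adjusted p = 0.00178) over 11.

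**Figure D3:**
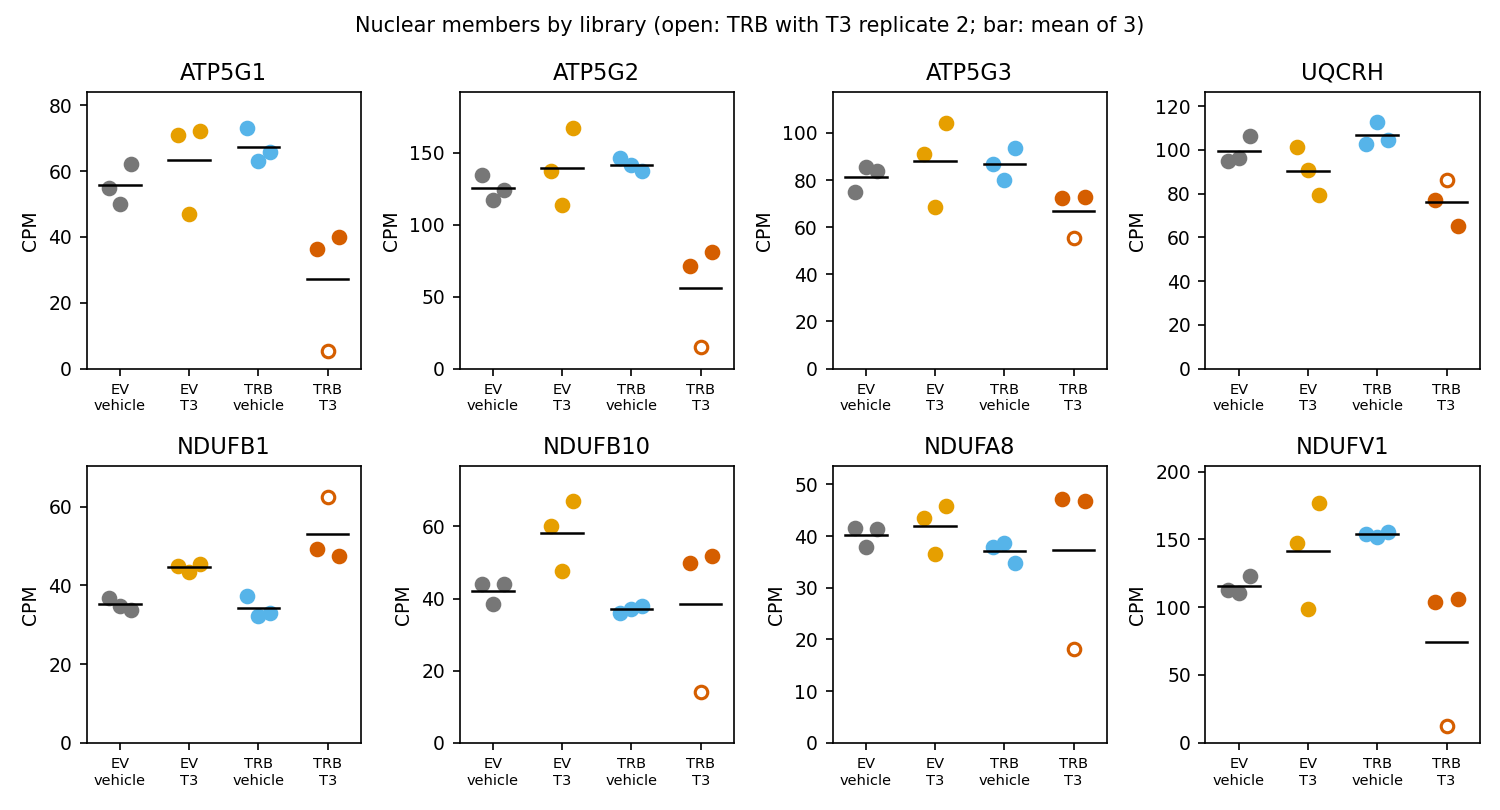
CPM of 8 nuclear genes by group, with 1 point per library, an open point for TRB with T3 replicate 2, and bars at the mean of 3. For ATP5G1, ATP5G2, ATP5G3, UQCRH and NDUFV1 every TRB library with T3 is under every TRB library with vehicle, and for NDUFB1 every one is above; for NDUFB10 and NDUFA8 replicate 2 is under the vehicle libraries and the other 2 are above.

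Replicate 2 of TRB with T3 also split the nuclear genes among themselves. NDUFC2, NDUFA5 and SDHD stood at 194, 214 and 176 CPM there, the highest of their 12 libraries, while COX8A, NDUFB7 and ATP5D stood at 2.16, 0.54 and 1.079, the lowest. These 6 were named after their values were seen. In the same order, their GC contents were 45.4, 36.4 and 41.0% and 58.6, 65.0 and 69.6%. Over 12 libraries their log2 fold changes for T3 in TRB cells were 1.29, 0.92, 0.63, -1.04, -1.12 and -0.83. With GC offsets these changes were 0.92, 0.12, -0.050, -0.88, -0.64 and -0.24. The nuclear genes spanned 36.4% to 69.6% GC with a median of 48.2%, close to the 49.1% of all genes tested, and the mitochondrial genes 40.2% to 47.7% with a median of 44.9%. How far GC content or RNA quality contributed to these values was not tested.

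Levels of the mitochondrial mRNAs were compared per kilobase of transcript. The mean level in TRB with vehicle was highest for MT-CO2, a core subunit of complex IV, at 5599.6 ± 856 CPM per kb (SD, n = 3), followed by MT-CO3 at 4869 ± 671 and MT-CO1 at 4073 ± 683. The SDs of these neighbours overlapped. MT-ND4, MT-ATP6, MT-CYB, MT-ND1 and MT-ND2 lay between 1990.4 and 2998 CPM per kb, and MT-ATP8, MT-ND3, MT-ND5 and MT-ND4L lay between 1310.1 and 1347. MT-ND6, the only one of these genes encoded on the light strand, was the lowest at 448 ± 75.3. On the mitochondrial genome (chromosome M, GENCODE 29) MT-ND6 at chrM:14149-14673 follows directly on MT-ND5 at chrM:12337-14148, MT-ND4L at chrM:10470-10766 overlaps MT-ND4 at chrM:10760-12137, and MT-ATP8 at chrM:8366-8572 overlaps MT-ATP6 at chrM:8527-9207. Whether counting used strand is not given in the sources used here, so reads in these neighbours are uncertain.

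With T3 in TRB cells, MT-ND3, a complex I core subunit, and MT-CYB, the cytochrome b of complex III, came closest to the threshold over 11 libraries. The CPM of MT-ND3 was 514, 477 and 407 in TRB cells with vehicle and 951, 462 and 767 in TRB cells with T3 (replicates 1, 2 and 3). The CPM of MT-CYB was 3532, 3025 and 2549 in TRB cells with vehicle and 5199, 3418 and 4552 in TRB cells with T3 (replicates 1, 2 and 3). Replicates 1 and 3 were above all vehicle libraries in both genes, and replicate 2 was inside the vehicle range. Over 11 libraries the log2 fold change of MT-ND3 was 0.93 ± 0.35 (SE; adjusted p = 0.0557, edgeR) and that of MT-CYB was 0.73 ± 0.27 (adjusted p = 0.0534). Over 12 libraries they were 0.64 (adjusted p = 0.276) and 0.53 (adjusted p = 0.24).

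For MT-ND2, MT-ND4 and MT-ND5, further complex I core subunits, all 3 T3 libraries were above the vehicle libraries, replicate 2 included. The CPM of MT-ND5 was 2772, 2415 and 2046 in TRB cells with vehicle and 3971, 4295 and 3539 in TRB cells with T3 (replicates 1, 2 and 3). Their log2 fold changes over 12 libraries were 0.65, 0.67 and 0.71, with adjusted p-values (edgeR) of 0.165, 0.191 and 0.139. MT-ND1 and MT-ND4L had changes of 0.54 and 0.52 over 11 libraries, and MT-CO2 of 0.59. None passed. With GC offsets over 11 libraries the 5 that passed were MT-ND2, MT-ND3, MT-ND5, MT-CYB and MT-CO2, at 0.52 to 0.86. MT-ATP6, the proton-channel subunit a of complex V, had a change of 0.77 ± 0.33 (SE; adjusted p = 0.0955, edgeR) over 11 libraries and 1.03 (adjusted p = 0.0903) over 12. MT-ATP8 had 0.69 ± 0.40 (adjusted p = 0.214) over 11 libraries and 0.76 (adjusted p = 0.221) over 12.

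MT-CO1, the catalytic core of complex IV, had the 1 negative fitted change of the 11 over 12 libraries. The CPM of MT-CO1 was 7453, 5975 and 5413 in TRB cells with vehicle and 7208, 2856 and 6442 in TRB cells with T3 (replicates 1, 2 and 3). Replicates 1 and 3 were inside the vehicle range and replicate 2 was the lowest, and the log2 fold change was -0.19 (adjusted p = 0.713, edgeR) over 12 libraries and 0.17 (adjusted p = 0.61) over 11. MT-CO3 had 0.14 and 0.37, and MT-ND6 had 0.78 and 0.16, without passing.

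The mix of the 11 mitochondrial genes also differed. MT-CO1 made up 22.4, 21.2 and 22.0% of their counts in vehicle-treated TRB cells and 17.0, 8.95 and 17.4% in TRB with T3. All T3 libraries were under all vehicle libraries, also without replicate 2. In EV cells its share was 19.5, 20.7 and 20.8% with vehicle and 19.7, 17.1 and 20.5% with T3, which overlapped. MT-CO3 also held a smaller share with T3 in TRB cells, with no overlap. It stood at 13.2, 13.0 and 13.8% with vehicle and 12.2, 9.53 and 11.8% with T3.

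Other genes held larger shares with T3. MT-ND5 stood at 8.33, 8.56 and 8.32% in TRB with vehicle against 9.39, 13.5 and 9.55% in TRB with T3, with no overlap. MT-ND2 stood at 7.33, 7.33 and 6.99% and 7.95, 10.8 and 7.97%, again with no overlap. MT-ND4 stood at 13.9, 15.2 and 14.2% and 15.8, 22.8 and 15.6%, also with no overlap. MT-CYB stood at 10.6, 10.7 and 10.4% and 12.3, 10.7 and 12.3%, where replicate 2 was inside the vehicle range. MT-ND6 was at 0.841, 0.786 and 0.832% with vehicle and 0.627, 2.22 and 0.651% with T3, so that replicate 2 was the highest of 12 libraries and the other 2 were the lowest. Shares within a library have no test here, and 1 share falls when another rises.

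**Figure D4:**
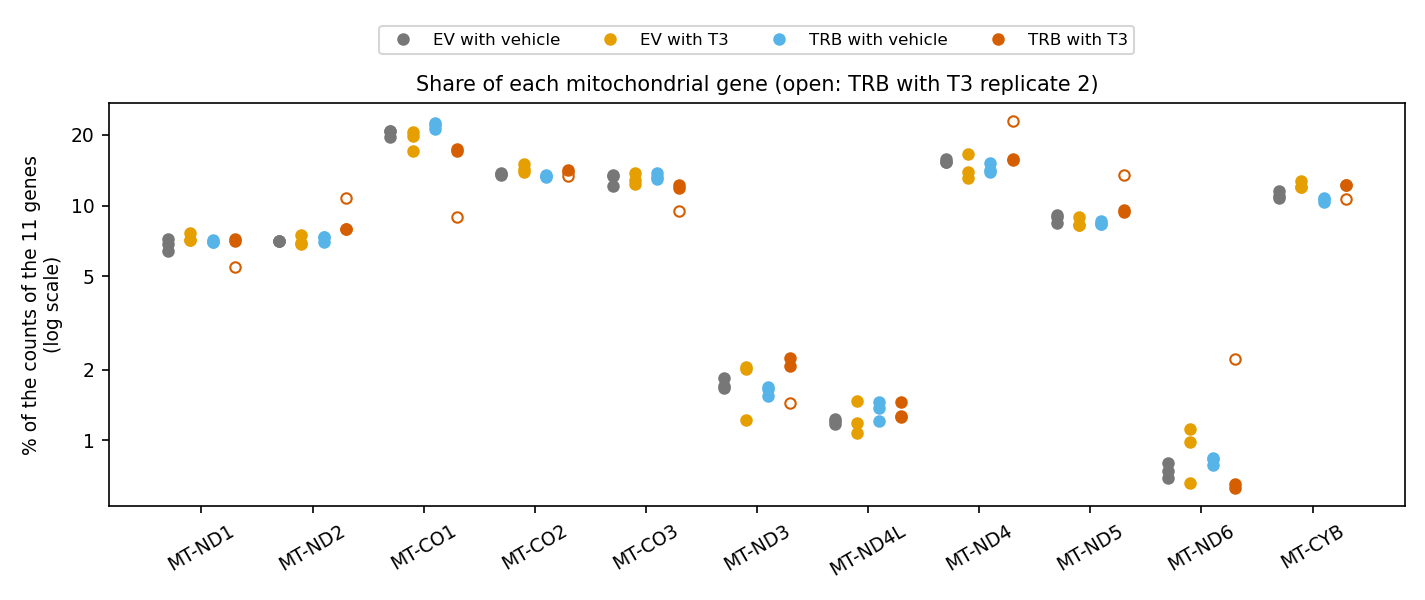
Share of each mitochondrial gene in the counts of the 11 genes, on a log scale, by group from left to right (EV with vehicle, EV with T3, TRB with vehicle, TRB with T3), with 1 point per library and an open point for TRB with T3 replicate 2. The MT-CO1 share in TRB with T3 is 17.0 and 17.4% in replicates 1 and 3 and 8.95% in replicate 2, under the 21.2 to 22.4% of TRB with vehicle.

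The mitochondrial rRNAs, which lie outside the group, varied far more than the mRNAs. MT-RNR1 and MT-RNR2 together took 0.0177, 0.00187 and 0.0055% of counts in vehicle-treated TRB cells, 0.00384, 0.0333 and 0.00155% in TRB with T3, 0.3, 0.0585 and 0.00734% in EV with vehicle and 0.904, 0.0925 and 0.222% in EV with T3. The highest EV library was above the highest TRB library by over an order of magnitude, and replicates of EV with vehicle differed by as much. Of everything counted, 19.0% to 92.0% per library was not uniquely aligned. Whether removal of rRNA or multiple alignment bears on the mitochondrial mRNA values was not tested.

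With T3 in EV cells, which have only their own receptors, 0 of the 88 genes passed over 12 libraries, beside 0.229% of all genes, with 1 nuclear and 0 mitochondrial genes at an unadjusted p under 0.05 (6.1% of all genes) and 0 called by DESeq2 (1.05%). Over the 11 libraries 1 nuclear gene passed, NDUFB10, beside 7.33% of all genes (3.76% higher). Its log2 fold change was 0.46 ± 0.12 (SE; adjusted p = 0.0439, edgeR), and 0.46 (adjusted p = 0.935) over 12, where the estimate of spread is wider. The median log2 change was 0.12 over the nuclear and 0.15 over the mitochondrial genes with 12 libraries, beside -0.00034 for all genes tested. NDUFB10 in EV with T3 was above every EV vehicle library in all 3 replicates. In 6 nuclear genes all EV T3 libraries lay above all vehicle libraries and in 3 below, 7.79% and 3.90% beside 11% and 15.9% of all genes, and 0 mitochondrial genes did either. With GC offsets 0 genes passed over 12 libraries, beside 4.35% of all genes, and 5 nuclear genes over 11, beside 17.5%.

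TRB against EV cells in vehicle asked what the receptor does without added hormone. Of the 88 genes 0 passed in either fit, beside 0.0208% of all genes over 12 libraries and 0.0742% over 11, with 0 at an unadjusted p under 0.05 over 12 libraries (1.48% of all genes), 9 nuclear genes over 11 (12.4%) and 0 called by DESeq2 (0.0263%). The fitted differences of all 11 mitochondrial genes were negative, with a median log2 difference of -0.36 and -0.34 in the fits of 12 and 11 libraries. Only 2 of these 11 had groups that did not overlap, 18.2% beside 20.5% of all genes. The nuclear median was 0.070 and 0.089, and 16 nuclear genes (20.8%) were above and 8 (10.4%) under EV cells without overlap, beside 15.9% and 20.5% of all genes. With GC offsets 0 and 1 nuclear genes passed over 12 and 11 libraries, beside 0.0805% and 1.02% of all genes. When the vehicle groups were fitted alone, 9 nuclear genes passed (8 higher and 1 lower in TRB cells, 11.7%) and 1 mitochondrial gene was lower, beside 11.2% of all genes in that fit.

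TRB against EV cells with T3 gave 0 calls among the 88 over 12 libraries, beside 6.68% of all genes, with 10 nuclear and 0 mitochondrial genes at an unadjusted p under 0.05 (25.5% of all genes) and 1 nuclear gene called by DESeq2 (12.2%). Over 11 libraries 4 nuclear genes passed, all lower, beside 19.7% of all genes (7.9% lower). These were ATP5G2 with a log2 difference of -0.80 ± 0.14 (SE; adjusted p = 0.00166, edgeR) and ATP5G1 with -0.66 ± 0.17 (adjusted p = 0.0164), then NDUFB9 and UQCRFS1, the Rieske iron-sulfur protein of complex III. NDUFB9 was at 212, 198 and 221 CPM in EV with T3, above all 3 TRB libraries with T3, and its log2 difference was -0.34 (adjusted p = 0.0374, edgeR). UQCRFS1 was at 99.1, 91.3 and 108 CPM in EV with T3 and 74.4, 61.5 and 75.7 in TRB with T3, again with no overlap. Its log2 difference was -0.34 (adjusted p = 0.0313, edgeR). Over 12 libraries ATP5G2, ATP5G1, NDUFB9 and UQCRFS1 had -1.315, -1.21, -0.65 and -0.49, with adjusted p-values (edgeR) of 0.113, 0.183, 0.112 and 0.0721. Without overlap, 15 nuclear genes (19.5%) were lower in TRB cells and 1 was higher over 12 libraries, beside 14.7% and 11.6% of all genes, and 29 (37.7%) and 2 over 11, beside 20.8% and 19.7%. With GC offsets 21 and 26 nuclear genes passed over 12 and 11 libraries, beside 28.4% and 41.4% of all genes. ATP5G2, ATP5G1, NDUFB9 and UQCRFS1 were among them in both. This comparison shares its TRB libraries with that of T3 in TRB cells.

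The interaction of vector and hormone tests whether the T3 effect differed between TRB and EV cells. Over 12 libraries it gave 0 of 88 genes, beside 2.59% of all genes, with 3 nuclear and 0 mitochondrial genes at an unadjusted p under 0.05 (20% of all genes) and 0 called by DESeq2 (6.34%). Over 11 libraries 4 nuclear genes passed, all with a lower T3 effect in TRB cells, beside 15.2% of all genes (6.68% with a lower effect). The difference on the log2 scale was -0.996 ± 0.19 (SE; adjusted p = 0.00407, edgeR) for ATP5G2 and -0.95 ± 0.23 (adjusted p = 0.0148) for ATP5G1. For NDUFV1 it was -0.78 ± 0.23 (adjusted p = 0.0398) and for NDUFB9 -0.46 ± 0.14 (adjusted p = 0.0446). The nuclear median was -0.37 over 12 and -0.21 over 11 libraries, beside -0.0066 and 0.031 for all genes, and the mitochondrial median 0.28 and 0.39. With GC offsets 11 and 27 nuclear genes passed over 12 and 11 libraries, beside 19% and 34.5% of all genes. ATP5G2, ATP5G1, NDUFV1 and NDUFB9 were among them in both.

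Other gene lists were read in the same fits of T3 in TRB cells. Among 23 tested regulators of mitochondrial biogenesis, 6 passed over 11 libraries (26.1%, beside 33.3% of all genes), 2 higher and 4 lower, and 3 over 12 (13.04%, beside 14.7%). PPARGC1B, a coactivator of mitochondrial biogenesis, was lower in both. The CPM of PPARGC1B was 21.5, 20.5 and 22.2 in TRB cells with vehicle and 11.3, 6.30 and 13.0 in TRB cells with T3 (replicates 1, 2 and 3). All T3 libraries were under all vehicle libraries, and the log2 fold change was -0.78 ± 0.14 (SE; adjusted p = 0.0009, edgeR) over 11 libraries and -1.06 (adjusted p = 0.0139) over 12. In EV cells it was at 20.6, 21.8 and 21.5 CPM with vehicle and 23.2, 26.2 and 30.6 with T3, where the T3 libraries were above, and the difference between the T3 effects in TRB and EV cells was -1.09 ± 0.19 (adjusted p = 0.00209) over 11 libraries and -1.38 (adjusted p = 0.0645) over 12.

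The related coactivator PPARGC1A was rare, at 1.080 to 3.98 CPM, with a change of 0.71 (adjusted p = 0.0462, edgeR) over 11 libraries and 0.65 (adjusted p = 0.105) over 12. POLG2, an accessory subunit of the mitochondrial DNA polymerase, and TWNK, the mitochondrial DNA helicase, were lower over 11 libraries, at -0.87 and -0.65. TFAM, which packages and transcribes mitochondrial DNA, was at 119.7, 160.3 and 158 CPM in vehicle-treated TRB cells and 104, 499 and 102 with T3, with replicate 2 the highest of 12. NRF1, GABPA, TFAM and the mitochondrial RNA polymerase POLRMT did not pass in either fit, with changes over 11 libraries of -0.25, -0.012, -0.45 and -0.24. The electron carrier CYCS and the complex III subunit CYC1, whose symbol is outside the name rule, had -0.43 and -0.37 and did not pass.

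Of 46 tested assembly factors, 14 passed over 11 libraries (30.4%, beside 33.3% of all genes), 2 higher and 12 lower, and 0 over 12 (beside 14.7%), where 12 had an unadjusted p under 0.05. The complex I factor NDUFAF2, the complex II factor SDHAF4 and the complex III factor LYRM7 had the most negative changes, -1.17, -1.15 and -1.09. NDUFAF1 and TIMMDC1, both factors of complex I, were higher at 0.51 and 0.35. Of 28 factors for mitochondrial RNA and its translation, 9 passed over 11 libraries (32.1%, near the 33.3% of all genes), 3 higher and 6 lower, and 1 over 12 (3.57%, beside 14.7%). LRPPRC, which stabilizes mitochondrial mRNAs, the elongation factor GFM1 and PTCD2 were lower at -0.61, -0.54 and -0.53. GFM2, MTIF3 and FASTKD5 were higher at 0.67, 0.53 and 0.37.

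Cytosolic ribosomal proteins, another large set of short and abundant mRNAs, were lower in more members. Of 77 tested, 30 were lower over 12 libraries and 61 over 11, beside 0 and 9 lower among the 77 nuclear respiratory chain genes. Of all genes tested, 15.2% were lower over 11 libraries, and 14.7% passed in either direction over 12 (8.54% higher, the rest lower). The median log2 change of the ribosomal proteins was -0.68 and -0.58. Their share of counts was 4.70, 4.25 and 4.28% in vehicle-treated TRB cells and 2.80, 1.65 and 2.81% in TRB with T3. Of 77 mitochondrial ribosomal proteins, all of them nuclear genes, 5 were lower over 12 libraries (6.49%). Beside them stand 14.7% of all genes in either direction, 8.54% higher and the rest lower. Over 11 libraries 14 were lower and 1 higher (19.5%, beside 33.3% of all genes). The part of the ribosomal change in the nuclear respiratory chain share was not tested.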

How the data were processed

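Total RNA of SW1736 cells was sequenced in 12 libraries, 3 for each of 4 groups taken from the labels. The values used are raw counts by gene symbol, deposited by the authors with 1 file per library. Per the submitters' processing notes, CASAVA 1.7, STAR 2.7, HTSeq 0.10, DESeq2 and the build hg38 were used, without a stated role or order; the annotation and strand setting are not given in the sources used here. The deposited table of normalized values was not used, and 11 library columns in it were left aside. Closing lines for reads of no gene (for example 2.14% to 24.4% outside genes) stayed out of library sizes and tests. Libraries held 3819306 to 13086717 counts within genes.

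The tests used edgeR 4.0.16 under R 4.3.3: filterByExpr (minimum count 10, minimum total 15), TMM scaling, 1 coefficient per group, glmQLFTest two-sided, Benjamini-Hochberg adjustment over all genes tested, threshold 0.05. The fit of 12 libraries tested 14431 genes and that of 11 libraries 14825. Standard errors follow from each fitted change and its F value. The procedure was tested on simulated data with the same spread in all groups and no GC trend. That test does not cover the wide spread of TRB with T3 or the GC trends of these libraries. Alternatives were DESeq2 1.42.0, other scalings and filters, the compared groups alone, a replicate block, each library left out, and GC offsets (spline with 5 degrees of freedom, GENCODE 29 by symbol), the last chosen after seeing the data. Genes, lists and the rule for names were chosen with earlier results of these data known. The rule names every mitochondrial gene, the 4 most positive and 4 most negative nuclear genes past the threshold in each contrast and fit, the nuclear gene with the highest mean CPM of each complex, tissue-restricted isoforms, and from other lists the 3 most positive and 3 most negative past the threshold over 11 libraries with 8 fixed genes. Genes named besides, such as ATP5F1, COX6C, NDUFB6, ATP5G3 and those with extreme values in 1 library, were added after their values were seen. Nuclear genes with pseudogene symbols (19 of 77) may lose or gain reads. Not every marker gene examined is reported here.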

Additional observations from a re-analysis of the deposited data

Results flagged for a closer look

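In the interaction test of edgeR, the T3 effect differed between TRB and EV cells for 4 nuclear genes. This was over the 11 libraries without TRB with T3 replicate 2, where 15.2% of all genes passed (6.68% with a lower effect). The difference on the log2 scale was -0.996 for ATP5G2, -0.95 for ATP5G1, -0.78 for NDUFV1 and -0.46 for NDUFB9. Over all 12 libraries the same differences were -1.49, -1.49, -1.34 and -0.75, with adjusted p-values of 0.232, 0.276, 0.335 and 0.227. With GC offsets over 12 libraries they were -1.002, -1.15, -0.78 and -0.38, with adjusted p-values (edgeR) of 0.000768, 0.0408, 0.0209 and 0.0365. Of all genes 19% passed there. In both TRB libraries with T3 of the fit of 11 libraries each of the 4 genes was under all TRB vehicle libraries. In EV cells the vehicle and T3 libraries of ATP5G1, ATP5G2 and NDUFV1 overlapped. Groups of 3 libraries are too small for the check of single libraries against their group.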

How the results depend on the processing

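The count of nuclear genes changed by T3 in TRB cells, 1 over 12 libraries, depended on the setting. It was 2 with total library size, 4 with DESeq2, 0 without a count filter and 2 with at least 10 counts in every library. It was 0 with the compared groups alone, 24 with GC offsets and 38 with GC offsets without TRB with T3 replicate 2. Of all genes, 14.7% passed over 12 libraries and 33.3% without TRB with T3 replicate 2. The shares were 17.5% with DESeq2, 42.8% with GC offsets and 56.4% with GC offsets without that library. Leaving out each library in turn gave 0 to 12, with 0 without TRB with vehicle replicate 2 or 3, 12 without TRB with T3 replicate 2 and 2 without TRB with T3 replicate 3. Counts of the other settings in this section, without a share of all genes beside them, cannot be set against the share that passed in their fit. The count of mitochondrial genes, 0, was 5 with GC offsets without TRB with T3 replicate 2, beside the same 56.4% of all genes. It was 0 to 1 when each library was left out, with 1 without EV with T3 replicate 2.

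In EV cells the T3 count of nuclear genes was 5 with GC offsets without TRB with T3 replicate 2, beside 17.5% of all genes. It was 0 to 1 over left-out libraries. TRB against EV in vehicle gave 9 nuclear genes and 1 mitochondrial gene with the compared groups alone, beside 11.2% of all genes. It gave 1 nuclear gene with GC offsets without TRB with T3 replicate 2, beside 1.02%. TRB against EV with T3 gave 1 nuclear gene with DESeq2, beside 12.2% of all genes. It gave 21 with GC offsets and 26 with GC offsets without that library, beside 28.4% and 41.4%, and 0 to 4 over left-out libraries. The interaction gave 11 and 27 nuclear genes with GC offsets with and without it, beside 19% and 34.5% of all genes. Over left-out libraries it gave 0 to 4. The cause of these differences between settings was not tested.

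The mitochondrial to nuclear ratio, computed without the 19 nuclear genes that have pseudogene symbols, was 6.24 in TRB with vehicle, 9.96 in TRB with T3, 8.47 in vehicle-treated EV cells and 9.04 in EV with T3. With all 77 nuclear genes the means, in the same order, were 3.99 to 4.57, 6.11 to 6.80, 5.11 to 6.29 and 4.34 to 7.07 when each library was left out.

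For T3 in TRB cells 21 of the 88 genes had the other sign over 11 libraries than over 12. Among the mitochondrial genes and those picked by the rule for names, 4 turned in sign under some setting. NDUFB10 was 0.56 with GC offsets over 12 libraries, -0.017 with total library size and -0.18 to 0.50 over left-out libraries. NDUFA8 was -0.072 with total library size, -0.0019 with at least 10 counts in every library and -0.16 to 0.39 over left-out libraries. MT-CO1 was 0.098 with GC offsets without TRB with T3 replicate 2 and -0.41 to 0.17 over left-out libraries, and MT-CO3 was -0.025 to 0.37. The values above 0 for MT-CO1, and the highest of each of these ranges, came without TRB with T3 replicate 2.

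Replicate numbers were not used as pairs in the main fits. Deviations of same-numbered libraries correlated at -0.146 to 0.728, and not every pair exceeded 0.1. The highest values were 0.728 and 0.636, for replicates 2 and 3 of TRB against EV with T3, where replicate 1 had 0.0589. Whether same-numbered libraries shared a batch was not tested. With a replicate block the T3 count in TRB cells was 2 nuclear genes, and NDUFB10 and NDUFA8 were at -0.061 and -0.055. The fit of compared groups alone was not run for the interaction, which uses all groups. Scaling without the mitochondrial genes changed no count by more than 1.5 times. Depth limits the rarest genes, such as UQCRHL.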

Other observations

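Of 13 tested citrate cycle genes, 2 passed for T3 in TRB cells over 11 libraries (15.4%, beside 33.3% of all genes) and 0 over 12 (beside 14.7%), and both were named after their values were seen. IDH2, the mitochondrial NADP-dependent isocitrate dehydrogenase, was at 53.1, 48.3 and 56.5 CPM in vehicle-treated TRB cells and 89.8, 21.2 and 101 with T3, with a log2 fold change of 0.90 ± 0.13 (SE; adjusted p = 0.000127, edgeR). CS, citrate synthase, was at 210.5, 215 and 207 and 174, 109.7 and 162 CPM, with -0.28 ± 0.10 (adjusted p = 0.0426). In IDH2 replicates 1 and 3 were above the vehicle libraries, and in CS all T3 libraries were under them.

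Of 14 tested genes for electron carriers and coenzyme Q, 5 passed over 11 libraries (35.7%, near the 33.3% of all genes), 2 higher and 3 lower, and 1 over 12 (7.14%, beside 14.7%). COQ2, which attaches the side chain of coenzyme Q, was higher in both, at 0.76 ± 0.12 (SE; adjusted p = 0.000338, edgeR) and 1.07 (adjusted p = 0.0124). ETFA and ETFDH, which pass electrons from fatty acid oxidation to coenzyme Q, were lower over 11 libraries at -0.60 and -0.68. PDSS1 and PDSS2, the subunits of the enzyme that makes the side chain, went in opposite directions at -0.59 and 0.54. These genes were named after their values were seen.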
